A study of Mus musculus with 12 samples.

Results

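Forebrain RNA of newborn mice (postnatal day 0) that carry stabilised beta-catenin alone was compared with RNA of Cre-negative control mice. The stabilised beta-catenin group, called GB here, has the genotype hGFAP-cre::Ctnnb1(ex3)Fl/+, and the control group has the genotype Ctnnb1(ex3)Fl/+SmoM2Fl/+ without Cre. Each group holds 3 arrays, labelled as biological replicates, and these 6 arrays are taken by genotype label from a set of 12. The other 6 arrays are 3 of hGFAP-cre::SmoM2Fl/+ (GS) and 3 of hGFAP-cre::Ctnnb1(ex3)Fl/+SmoM2Fl/+ (GBS, the tumour genotype), and they enter here only to estimate the spread and as values set beside those of GB. All values are log2 expression levels of Affymetrix arrays, and each gene is read from 1 probe set. The fit covered 14195 genes, those above the low-value filter, of 19938 with a probe set of their own.

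The 2 genotypes differ in more than the recombined Ctnnb1 allele. Control mice carry the same floxed Ctnnb1 allele, unrecombined, and a silent SmoM2 allele that GB mice lack, whereas Cre is present in GB mice and absent in Control mice. The effects of stabilised beta-catenin, of Cre itself and of the SmoM2 allele therefore cannot be told apart in this comparison. The promoter of the human GFAP gene, used in radial glia, drives Cre, so cells outside that lineage are expected to keep the floxed alleles, and the arrays average over all cells of the forebrain piece.

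Beta-catenin is the intracellular carrier of canonical WNT signalling. Without a WNT signal it is phosphorylated at residues encoded by exon 3, by a complex built on axin and APC, and is then degraded. Loss of exon 3 leaves a protein that escapes this step, enters the nucleus and acts with TCF/LEF factors on target genes, several of which, such as Axin2, encode inhibitors that feed back on the pathway. In the developing forebrain WNT signalling is known for patterning the dorsal cortex and hippocampus and for holding radial glia in a dividing state.

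Emx1 and En1, chosen after their values were seen, were read beside the forebrain label. Emx1, a transcription factor of the dorsal forebrain, lay between 8.07 and 8.48 on the GB arrays and between 8.21 and 8.32 on the Control arrays, where the median of all probe sets on an array lay between 6.52 and 6.69. En1, a factor of midbrain and hindbrain, lay between 6.27 and 6.90, a range that reaches above those medians. The median of the tested midbrain and hindbrain genes lay between 6.66 and 7.08 on the GB and Control arrays. That of the tested dorsal forebrain patterning and cortical hem genes lay between 7.13 and 7.44, so the lists stood closer together than the 2 single genes. The arrays do not share a sex: Eif2s3y, a Y-linked gene, lay at 7.90, 4.44 and 4.55 on GB replicates 1 to 3 and at 6.96 to 7.50 on the Control arrays, and Xist, which silences an X chromosome in females, was high on GB replicates 2 and 3 alone of these 6.

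GB replicate 2 stood apart from the other GB arrays, and the comparison was fitted with and without it. A gene named below had an adjusted p of 1.0 in the limma fit of all GB arrays unless a lower value for that fit is given. Over the tested genes its correlation was 0.616 with GB replicate 1 and 0.586 with GB replicate 3, where the other 2 GB arrays correlated at 0.982. On this array 1192 genes lay 2-fold or more from the Control mean, against 21 on GB replicate 1 and 37 on GB replicate 3. Its values spanned a narrower range, with an SD over genes of 0.661 against 0.80 and 0.827 on GB replicates 1 and 3: of 10 equal groups of genes by Control level, the highest had a median difference from Control of -0.94 on the log2 scale, against 0.12 and 0.21 on GB replicates 1 and 3, and genes of low level lay above Control. The median over all genes tested was 0.11 above the Control mean on this array. Olfactory and vomeronasal receptor genes, which forebrain is not expected to express at a high level, had a median of 5.35 on GB replicate 2 and of 5.02 to 5.23 on the other GB and Control arrays. Control replicate 3 moved the same way by less, with a median of -0.32 in the highest group relative to the other Control arrays. Whether RNA quality had a part in this was not tested.

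**Figure D1:**
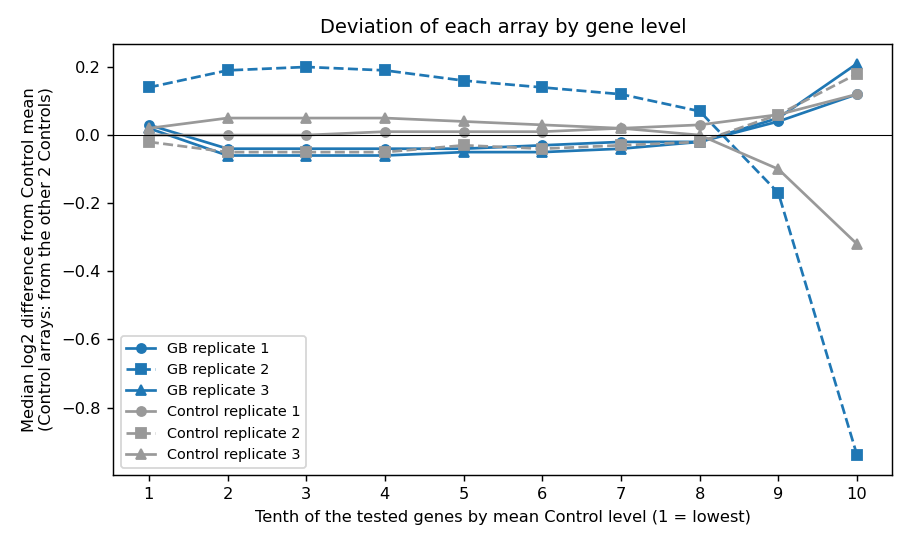
Median log2 difference from the Control mean (vertical axis) over the tested genes, divided into 10 equal groups by their mean Control level (horizontal axis), with 1 line for each GB array (blue) and each Control array (grey, against the mean of the other 2 Control arrays). GB replicate 2 (dashed blue) falls to -0.94 in group 10 while GB replicates 1 and 3 stand at 0.12 and 0.21.

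With all 3 GB arrays, no gene passed an adjusted p of 0.05 in either direction (limma with Benjamini-Hochberg adjustment over 14195 genes), which is 0.0% of the genes tested. At an unadjusted p under 0.05, limma gave 129 genes higher in GB (0.909%) and 27 lower (0.19%). Arrays of the groups did not overlap for 427 genes higher in GB (3.01%) and 155 lower (1.09%); without GB replicate 2 these shares were 18.1% and 20.7%. Without GB replicate 2, 7 genes passed the same threshold and all were higher in GB (0.0493% of the genes tested): Mybpc1, Chd7, Adamts19, Cyp1b1, Pcgf5, Nhlh1 and Axin2. No gene passed as lower in GB without this array, where 343 genes (2.42%) had an unadjusted p under 0.05 in that direction and 448 (3.16%) in the other. In a bulk sample of this kind, fewer cells of a type and less RNA per cell cannot be told apart. The count of 7 moved with single arrays: it was 3 without GB replicate 1, 2 without GB replicate 3, 4 without each Control array, 32 without GS replicate 3 and 21 without GBS replicate 2. Leaving out GS replicate 3 and Control replicate 3 with GB replicate 2 gave 25 genes higher (0.176%) and 1 lower (0.00704%).

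**Figure D2:**
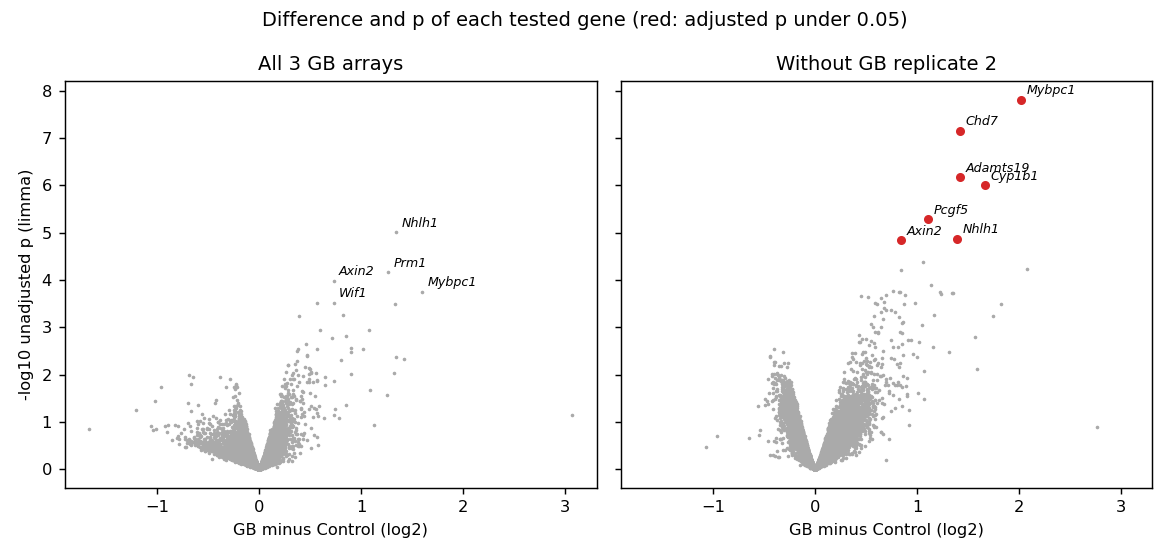
Log2 difference, GB minus Control (horizontal axis), against -log10 of the unadjusted limma p (vertical axis), with 1 point for each of 14195 genes, from all 3 GB arrays (left) and without GB replicate 2 (right). Red points have an adjusted p under 0.05: there are 0 on the left and 7 on the right, all to the right of zero.

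Axin2, the scaffold of the destruction complex and a feedback target of the WNT pathway, was the only member of the WNT target list among these 7 genes. Its level was 6.99, 7.04 and 7.18 on Control replicates 1 to 3 and 7.88, 7.58 and 7.95 on GB replicates 1 to 3. Every GB array, replicate 2 included, lay above every Control array. The difference was 0.73 ± 0.124 (SE) on the log2 scale with all GB arrays (limma, adjusted p = 0.494) and 0.84 ± 0.116, or 1.79-fold, without GB replicate 2 (limma, adjusted p = 0.0293). The call of Axin2 was lost without GB replicate 1 (limma, adjusted p = 0.505) or 3 (adjusted p = 0.554), without any 1 Control array, GS replicate 1 or 2, or GBS replicate 3, while the difference stayed between 0.81 and 0.90 in all of these. Axin2 also did not pass with sex as a covariate (limma, adjusted p = 0.19), with the replicate number as a block (adjusted p = 0.0626) or after array medians were centred (adjusted p = 0.0765).

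The upstream sequences of 3 genes are shown because they span a WNT target that passed the test (Axin2), a gene outside the target list that passed it (Cyp1b1), and a classical target that did not (Sp5). They are RefSeq promoters of build GRCm38.p6, from 250 bases before to 50 bases after the annotated start, and capitals mark matches to the core of the TCF/LEF binding motif, searched as CTTTGAA or CTTTGAT and also as CTTTGTA or CTTTGTT on both strands. Axin2 lies at chr11:108920099-108920398 on the plus strand, Cyp1b1 at chr17:79715012-79715311 on the minus strand and Sp5 at chr2:70474673-70474972 on the plus strand.
Axin2: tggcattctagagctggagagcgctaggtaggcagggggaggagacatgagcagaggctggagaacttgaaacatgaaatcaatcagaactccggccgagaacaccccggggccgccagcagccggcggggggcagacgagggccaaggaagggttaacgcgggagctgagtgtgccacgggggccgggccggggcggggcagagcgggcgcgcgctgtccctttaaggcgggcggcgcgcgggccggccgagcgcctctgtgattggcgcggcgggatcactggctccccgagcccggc
Cyp1b1: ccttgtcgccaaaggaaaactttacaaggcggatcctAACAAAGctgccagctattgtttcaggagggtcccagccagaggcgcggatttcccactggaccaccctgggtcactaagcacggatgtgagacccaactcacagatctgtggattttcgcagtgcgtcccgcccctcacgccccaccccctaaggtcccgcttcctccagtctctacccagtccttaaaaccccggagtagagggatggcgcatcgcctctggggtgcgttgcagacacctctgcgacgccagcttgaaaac
Sp5: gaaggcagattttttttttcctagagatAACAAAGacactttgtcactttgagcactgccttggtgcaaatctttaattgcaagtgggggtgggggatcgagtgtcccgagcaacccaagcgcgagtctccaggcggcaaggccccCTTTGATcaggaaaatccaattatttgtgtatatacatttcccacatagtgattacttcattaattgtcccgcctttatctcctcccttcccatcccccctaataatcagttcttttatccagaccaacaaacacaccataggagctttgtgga
The Axin2 window holds no match, the Cyp1b1 window 1 and the Sp5 window 2. Of 32851 promoters of this length in the table, 16.9% hold at least 1 match. Entries were found for 5 of the 7 genes that passed the test, with 7 promoters, of which 14.3% hold a match, and the 19 promoters found for the WNT target list hold one in 26.3%. A match describes the letters of the window and not a bound site.

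Mybpc1, a myosin-binding protein best known from muscle, rose most among the 7. Its level was 6.45, 6.51 and 6.63 on the Control arrays and 8.45, 7.28 and 8.66 on GB replicates 1 to 3. GB replicate 2 lay between the Control arrays and the other GB arrays. The difference was 2.02 ± 0.142 on the log2 scale, 4.07-fold, without GB replicate 2 (limma, adjusted p = 0.000219) and 1.60 ± 0.288 with it (adjusted p = 0.624).

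Cyp1b1, a cytochrome P450 that acts on steroids and retinoids, had levels of 6.47, 6.88 and 6.65 on the Control arrays and 8.09, 7.32 and 8.58 on the GB arrays. The rise was 3.18-fold without GB replicate 2 (log2 1.67 ± 0.174, limma, adjusted p = 0.00352), and the log2 difference was 1.33 ± 0.258 with it (adjusted p = 0.661). Adamts19, a secreted metalloprotease, had levels of 6.40, 6.21 and 6.53 on the Control arrays and 7.81, 6.76 and 7.79 on the GB arrays, a 2.68-fold rise without GB replicate 2 (log2 1.42 ± 0.143, limma, adjusted p = 0.00321) and a log2 difference of 1.08 ± 0.246 with it (adjusted p = 1.0). For both genes the 3 GB arrays lay above the 3 Control arrays. Without GB replicate 3 in addition, neither gene passed (limma, adjusted p = 0.0975 for each), and Adamts19 also did not pass without GB replicate 1 (adjusted p = 0.0865).

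Chd7, a chromatin remodeller that acts in neural progenitors, had levels of 8.46, 8.47 and 8.23 on the Control arrays and 9.76, 8.60 and 9.85 on the GB arrays. It rose 2.68-fold without GB replicate 2 (log2 1.42 ± 0.115, limma, adjusted p = 0.000503), and the log2 difference was 1.02 ± 0.265 with it (adjusted p = 1.0). On GB replicate 2 it lay just above the highest Control array. Pcgf5, a subunit of Polycomb repressive complex 1, had levels of 6.08, 6.24 and 6.19 on the Control arrays and 7.20, 6.49 and 7.36 on the GB arrays, and rose 2.16-fold without GB replicate 2 (log2 1.11 ± 0.138, limma, adjusted p = 0.0147), with a log2 difference of 0.85 ± 0.203 when it was included (adjusted p = 1.0). Pcgf5 did not pass without GB replicate 1 (limma, adjusted p = 0.164), without GB replicate 3 (adjusted p = 0.453), without any 1 Control array, or with sex as a covariate (adjusted p = 0.147). Its Control levels, and its GS levels of 6.4 to 6.51, lay below the array medians of 6.52 to 6.69.

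Nhlh1, a basic helix-loop-helix factor of newly born neurons, had the most even levels over the GB arrays among the 7 genes. It lay at 6.31, 6.25 and 6.33 on the Control arrays and at 7.74, 7.54 and 7.63 on the GB arrays. Its Control levels, and its GS levels of 5.95 to 6.31, lay below the array medians of 6.52 to 6.69. The groups did not overlap and GB replicate 2 stood with its group. The difference was 1.34 ± 0.174 with all GB arrays, where Nhlh1 had the lowest p of all genes (limma, adjusted p = 0.14), and 1.39 ± 0.19, 2.62-fold, without GB replicate 2 (limma, adjusted p = 0.0293). The call was lost without GB replicate 1 (limma, adjusted p = 0.708) or 3 (adjusted p = 0.453), without any 1 Control array, and without GS replicate 2 or GBS replicate 3. Nhlh1 also did not pass with sex as a covariate (limma, adjusted p = 0.19) or after array medians were centred (adjusted p = 0.059).

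Levels of the same genes in the other Cre-carrying groups are given as a description, since those groups are compared with the same Control arrays. Differences taken from the same Control arrays share the error of those arrays. In GBS minus Control, Mybpc1 stood at 3.58 on the log2 scale, Cyp1b1 at 4.02, Adamts19 at 3.20, Chd7 at 2.48, Pcgf5 at 2.38, Nhlh1 at 2.10 and Axin2 at 1.78. In GS minus Control, the values were -0.15 for Mybpc1, 0.28 for Cyp1b1, -0.13 for Adamts19, 0.61 for Chd7, 0.27 for Pcgf5, -0.15 for Nhlh1 and 0.03 for Axin2. Each of the 7 differences in GBS was larger in size than the one in GB, and 6 of 7 in GS lay within 0.30 of zero. The share of all genes tested with a larger difference in GBS than in GB was not computed. Nor was the share within that range in GS, so neither count is a result about these genes.

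**Figure D3:**
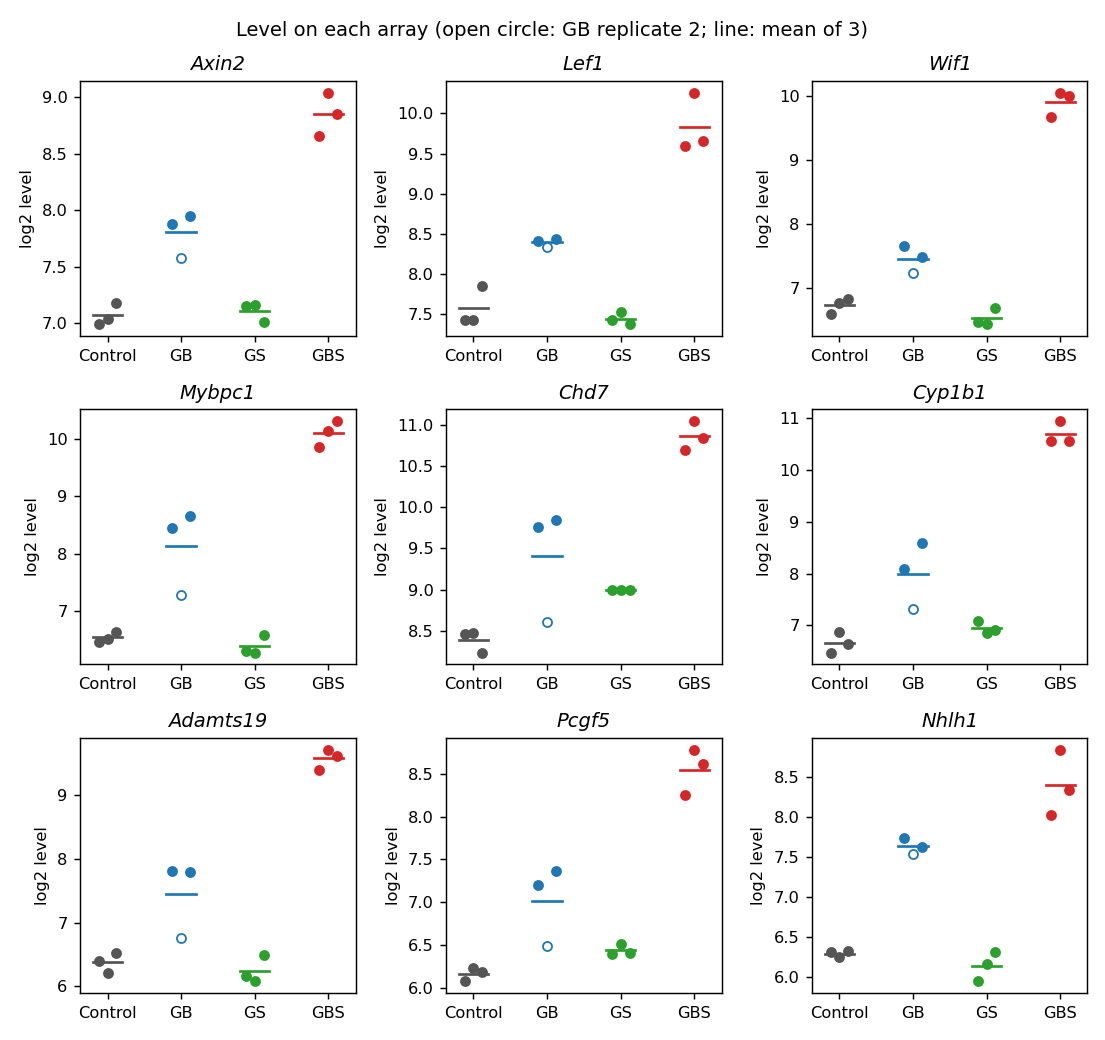
Log2 level (vertical axis, a separate scale in each panel) of 9 genes on each array of the 4 groups, with 3 arrays a group; the bar is the mean of 3 and the open circle is GB replicate 2. Nhlh1 and Lef1 have all 3 GB arrays close together, whereas GB replicate 2 lies below the other GB arrays for Mybpc1, Chd7, Cyp1b1, Adamts19 and Pcgf5.

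Besides Axin2, 10 WNT feedback and target genes lay above Control and 7 below without GB replicate 2, and none of these passed. The list has 20 genes and 18 were tested, the others being Dkk4, below the filter, and Tcf7, which has no probe set of its own. Without GB replicate 2, 1 of 18 passed (Axin2) and 6 had an unadjusted p under 0.05 in limma, all higher in GB. Over all genes tested, 3.16% had such a p in that direction and 44.9% lay above Control. The median difference of the list was 0.06, beside -0.02 over all genes tested. With all GB arrays, 0 of 18 passed and 6 had an unadjusted p under 0.05 in limma, all higher, beside 0.909% of all genes. The median in that fit was 0.14, beside 0.00 over all genes. The list median on single arrays was 0.12, 0.29 and 0.08 above the Control mean on GB replicates 1, 2 and 3, where the olfactory and vomeronasal receptor genes stood at -0.15, 0.30 and -0.20.

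Lef1, a DNA-binding partner of beta-catenin, had levels of 7.43, 7.43 and 7.85 on the Control arrays and 8.41, 8.33 and 8.44 on the GB arrays. The groups did not overlap, and the difference was 0.82 ± 0.17 with all GB arrays (limma, adjusted p = 0.909) and 0.86 ± 0.187 without GB replicate 2 (adjusted p = 0.269). Wif1, a secreted protein that binds WNT ligands, lay at 6.60, 6.77 and 6.84 on the Control arrays and at 7.66, 7.24 and 7.49 on the GB arrays, again without overlap. Its difference was 0.73 with all GB arrays (limma, adjusted p = 0.661) and 0.84 ± 0.135 without GB replicate 2 (adjusted p = 0.0855), and it passed when GS replicate 3 and Control replicate 3 were left out as well (adjusted p = 0.0247). Tnfrsf19, a receptor induced by WNT signals, lay at 6.86 to 6.94 on the Control arrays and at 7.15 to 7.32 on the GB arrays (difference 0.37 with all GB arrays and 0.43 without GB replicate 2, limma, adjusted p = 0.41 in the latter). Nkd1, an inhibitor of Dishevelled, lay at 7.56, 7.28 and 7.81 on the Control arrays and at 8.17, 7.99 and 8.21 on the GB arrays (difference 0.57 with all GB arrays and 0.64 without GB replicate 2, limma, adjusted p = 0.711 in the latter).

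Several targets often used to read out the pathway overlapped between the groups. Sp5, a transcription factor whose upstream window is shown above with 2 motif matches, lay at 6.67, 6.60 and 6.76 on the Control arrays and at 6.63, 7.05 and 6.85 on the GB arrays. Notum, an extracellular enzyme that inactivates WNT ligands, lay between 7.02 and 7.27 on the Control arrays and between 7.20 and 7.37 on the GB arrays. Ccnd1, which encodes cyclin D1, lay between 6.78 and 6.91 on the Control arrays and between 6.76 and 7.0 on the GB arrays. Their 95% intervals of the difference without GB replicate 2 ran from -0.23 to 0.35 for Sp5, from -0.17 to 0.29 for Notum and from -0.24 to 0.13 for Ccnd1. In the fit of all GB arrays they ran from -0.13 to 0.46, from -0.10 to 0.34 and from -0.18 to 0.21.

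The list of secreted WNT antagonists shares Wif1, Dkk1, Notum and Apcdd1 with the target list among its 13 tested members, so their counts are not separate. Of the 13, 0 passed with all GB arrays, where 3 had an unadjusted p under 0.05 in limma, all higher, beside 0.909% of all genes. The median of the list was 0.11. Without GB replicate 2, none passed and 4 had an unadjusted p under 0.05 in limma, all higher in GB, beside 3.16% of all genes. The median was then 0.06. Apcdd1, a membrane inhibitor of WNT signalling, lay between 7.62 and 7.72 on the Control arrays and between 8.04 and 8.20 on the GB arrays. Sfrp4, a secreted decoy for WNT ligands, lay between 6.54 and 6.63 on the Control arrays and between 6.80 and 6.89 on the GB arrays. Neither gene overlapped between the groups and neither passed. The differences with and without GB replicate 2 were 0.43 and 0.47 for Apcdd1 and 0.28 and 0.27 for Sfrp4 (limma, adjusted p = 0.711 for each without it).

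The ligands and receptors of the pathway had no member that passed. Of 17 WNT ligands tested, 14 lay below Control and 3 above without GB replicate 2, with a median of -0.16, while the median on GB replicate 2 was 0.28 above Control and that with all GB arrays was -0.01. The olfactory and vomeronasal receptor genes had like values, with 200 of 208 below Control and a median of -0.17 without GB replicate 2 and a median of 0.30 on it. Limma gave an unadjusted p under 0.05 for 1 ligand that was higher in GB, Wnt5a, and for 2 that were lower, Wnt9a and Wnt11. Over all genes tested without this array, 55.1% lay below Control and 44.9% above. Of 22 receptors and R-spondins, 0 passed, and the only members with an unadjusted p under 0.05 in limma without GB replicate 2 were Rspo3, an enhancer of WNT signalling, with a difference of 0.47, and Rspo2, of the same family, with -0.31 (adjusted p = 0.711 for both). The differences with all GB arrays were 0.23 and -0.26.

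Ctnnb1 itself, whose allele was changed, had levels of 8.13, 8.22 and 7.89 on the Control arrays and 8.18, 7.56 and 8.35 on the GB arrays. The groups overlapped, with GB replicate 2 lowest. The difference without GB replicate 2 was 0.19, with a 95% interval from -0.15 to 0.52 (limma, adjusted p = 0.724), and with it -0.05, with an interval from -0.49 to 0.39. One value for the whole gene does not separate transcripts with and without exon 3, so it gives no check of the recombination. Of the 25 tested members of the destruction complex and TCF partner list, Axin2 was the only one that passed without GB replicate 2. Tle1, a corepressor of TCF factors, had the lowest p after Axin2 and Lef1, with a difference of 0.46 (limma, adjusted p = 0.46) and of 0.25 with all GB arrays.

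Genes of the Sonic hedgehog pathway, the pathway that the SmoM2 allele activates, showed no call among 15 tested. None had an unadjusted p under 0.05 in limma with or without GB replicate 2, and the median was 0.04 with it and -0.01 without it. Ptch1, receptor and target of the pathway, lay at 7.17, 7.11 and 7.08 on the Control arrays and at 6.96, 7.12 and 7.28 on the GB arrays. The 95% interval of its difference was -0.29 to 0.28 without GB replicate 2. For Gli1, a transcription factor and target of the pathway, with 7.64 to 7.91 on the Control arrays and 7.56 to 7.99 on the GB arrays, the interval was -0.39 to 0.11. Smo lay between 7.0 and 7.26 on the Control arrays and between 7.03 and 7.36 on the GB arrays, with an interval of -0.21 to 0.26. With all GB arrays the intervals were -0.26 to 0.26 for Ptch1, -0.29 to 0.28 for Gli1 and -0.14 to 0.33 for Smo.

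Progenitor genes had no member that passed. In the list of radial glia and neural progenitors 0 of 18 tested passed, with a median of 0.02 without GB replicate 2. In that fit 10 genes lay above Control and 8 below, where 44.9% of all genes tested lay above. An unadjusted p under 0.05 in limma was found for 2 genes, all higher, beside 3.16% of all genes tested. With all GB arrays 11 lay above and 7 below, with a median of 0.05. In that fit 1 gene had such a p as higher and 1 as lower, beside 0.909% and 0.19% of all genes. Vim, an intermediate filament of radial glia, lay at 8.11, 8.29 and 8.14 on the Control arrays and at 8.68, 8.02 and 8.78 on the GB arrays, so that the groups separated only without GB replicate 2 (difference 0.55, limma, adjusted p = 0.281, against 0.31 with it). Prom1, a membrane protein of the apical surface of progenitors, lay at 6.56 to 7.04 on the Control arrays and 6.92 to 7.38 on the GB arrays (difference 0.40 with all GB arrays and 0.54 without GB replicate 2, limma, adjusted p = 0.711 in the latter). Pax6, a factor of radial glia, lay between 6.62 and 6.88 on the Control arrays and between 6.78 and 7.09 on the GB arrays. Sox9, of the same list, went the other way and did not pass. Over the processing alternatives its difference ran from -0.2 to -0.1 without GB replicate 2 and from -0.16 to -0.05 with all GB arrays.

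For proliferation genes, 0 of 22 tested had an unadjusted p under 0.05 in limma in either direction, with or without GB replicate 2. Mki67, a marker of dividing cells, lay at 7.0, 7.29 and 7.14 on the Control arrays and at 7.54, 7.11 and 7.53 on the GB arrays. The difference without GB replicate 2 was 0.39, with a 95% interval from -0.19 to 0.97, and with it 0.25, from -0.31 to 0.81. Of 22 genes, 14 lay above Control and 8 below without this array, where 44.9% of all genes tested lay above, with a median of 0.07. The 11 tested D cyclins, CDK4/6 and CDK inhibitors had a median of 0.01, and none reached an unadjusted p under 0.05 in limma.

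In the cascade of excitatory neurogenesis Nhlh1 was the only call among 15 genes tested without GB replicate 2. In that fit 8 lay above Control and 7 below, with a median of 0.03, where 44.9% of all genes tested lay above. With all GB arrays 6 lay above and 9 below, with a median of -0.04. Neurod6, also of this list, lay below Control on all GB arrays and is given with the neuron genes below. Neurog2, a proneural factor upstream in this cascade, lay at 7.07, 7.07 and 7.24 on the Control arrays and at 7.63, 7.28 and 7.43 on the GB arrays, without overlap (difference 0.32 with all GB arrays and 0.41 without GB replicate 2, limma, adjusted p = 0.711 in the latter). Eomes, a factor of intermediate progenitors, lay between 5.98 and 6.58 on the Control arrays and between 6.39 and 6.68 on the GB arrays, and the groups overlapped. Lin28a, an RNA-binding protein of early progenitors, lay between 6.98 and 7.18 on the Control arrays and between 6.86 and 7.29 on the GB arrays.

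Neuron genes were low on GB replicate 2. The median of 17 postmitotic neuron genes relative to the Control mean was 0.06, -0.97 and 0.10 on GB replicates 1, 2 and 3, and that of 16 synapse and transmitter receptor genes was 0.06, -0.82 and 0.19. The 58 ribosomal protein genes, with list medians of 8.58 to 8.94 on the Control arrays beside 8.84 to 9.09 for the postmitotic list, stood at 0.13, -0.15 and 0.20. Dcx, a microtubule protein of migrating neurons, lay at 10.32, 10.15 and 9.63 on the Control arrays and at 10.10, 8.0 and 10.11 on the GB arrays. The group medians of the postmitotic list were -0.36 with this array and 0.06 without it, and 0 of 17 genes had an unadjusted p under 0.05 in limma in either fit. Neurod6, a factor of cortical projection neurons, lay at 8.32, 8.58 and 7.78 on the Control arrays and at 7.69, 5.90 and 7.46 on the GB arrays, below Control on all GB arrays (difference -1.21 with all GB arrays and -0.65 without GB replicate 2, limma, adjusted p = 0.712 in the latter). Of 14 cortical layer genes, 12 lay below Control and 2 above without GB replicate 2, where 55.1% of all genes lay below, with a median of -0.11, 0 calls and 1 gene, Pou3f3, at an unadjusted p under 0.05 in limma.

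Dorsal patterning genes had no call. Of 16 tested, 3 had an unadjusted p under 0.05 in limma without GB replicate 2, all higher, beside 3.16% of all genes tested. The list median was 0.11. Emx2, a homeodomain factor of the dorsal and hippocampal forebrain, lay at 6.42, 6.26 and 6.47 on the Control arrays and at 7.01, 6.84 and 7.08 on the GB arrays. These groups did not overlap, and the difference was 0.60 with GB replicate 2 (limma, adjusted p = 1.0) and 0.67 without it (adjusted p = 0.245). Dmrt3, a dorsal forebrain factor, lay between 7.42 and 7.51 on the Control arrays and between 7.68 and 7.77 on the GB arrays (difference 0.26 with all GB arrays and 0.28 without GB replicate 2, limma, adjusted p = 0.711 in the latter). Prox1, a homeodomain factor known from the dentate gyrus and thalamus, belongs to the thalamus and hypothalamus list, of which 3 of 12 genes lay above Control and 9 below without GB replicate 2, with a median of -0.07. It lay at 6.61, 6.32 and 6.19 on the Control arrays and at 7.40, 6.45 and 7.47 on the GB arrays (difference 0.73 with all GB arrays and 1.06 without GB replicate 2, limma, adjusted p = 0.073 in the latter), and it passed when Control replicate 3 and GS replicate 3 were also left out (adjusted p = 0.0207).

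Of 21 axon guidance genes, 15 lay above Control and 6 below without GB replicate 2, where 44.9% of all genes tested lay above. The list median in this fit was 0.12. An unadjusted p under 0.05 in limma was found for 3 genes, all higher, beside 3.16% of all genes, and 0 passed. The median with all GB arrays was -0.12. Dcc, the netrin receptor, lay at 8.61, 8.13 and 7.91 on the Control arrays and at 9.57, 7.86 and 9.55 on the GB arrays, so the groups overlapped only through GB replicate 2 (difference 0.78 with it and 1.35 without it, limma, adjusted p = 0.145 in the latter). Of 22 extracellular matrix genes 11 lay above Control and 11 below without GB replicate 2. In that fit 4 had an unadjusted p under 0.05 in limma, all higher, beside 3.16% of all genes. Adamts19 was the only call, where 0.0493% of all genes were called higher. With all GB arrays 0 passed and 3 had such an unadjusted p, all higher, beside 0.909% of all genes. Hmcn1, a large matrix protein, lay at 6.82, 7.03 and 6.94 on the Control arrays and at 9.03, 6.14 and 8.98 on the GB arrays, higher than Control on GB replicates 1 and 3 and lower on replicate 2 (difference 1.12 or 2.17-fold with it and 2.08 or 4.22-fold without it, limma, adjusted p = 1.0 and 0.0855). Dcn, a proteoglycan of fibroblasts, lay at 6.36, 7.46 and 6.75 on the Control arrays and at 8.35, 7.35 and 8.85 on the GB arrays (difference 1.32 with all GB arrays and 1.74 without GB replicate 2, limma, adjusted p = 0.223 in the latter).

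Marker lists of tissue beside the cortex varied between arrays of a group. The 9 tested markers of meninges and fibroblasts, Dcn among them, had medians of 0.05, 0.27 and 0.44 above the Control mean on GB replicates 1 to 3. Of the 9, 6 lay above Control and 3 below without GB replicate 2. In that fit 2 of 9, Dcn and Zic1, were higher at an unadjusted p under 0.05 in limma, beside 3.16% of all genes. Col1a1, a fibroblast collagen, lay between 8.05 and 8.26 on the Control arrays and between 8.03 and 8.43 on the GB arrays. Ttr, the main secreted protein of the choroid plexus, lay at 6.03, 5.90 and 9.96 on the Control arrays and at 5.79, 6.39 and 10.21 on the GB arrays, so it was high on replicate 3 of both groups and low on the others. The 10 choroid plexus markers tested had medians of -0.17, 0.11 and 0.32 on GB replicates 1 to 3. Their part in the differences of Dcn and the other matrix genes was not tested.

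**Figure D4:**
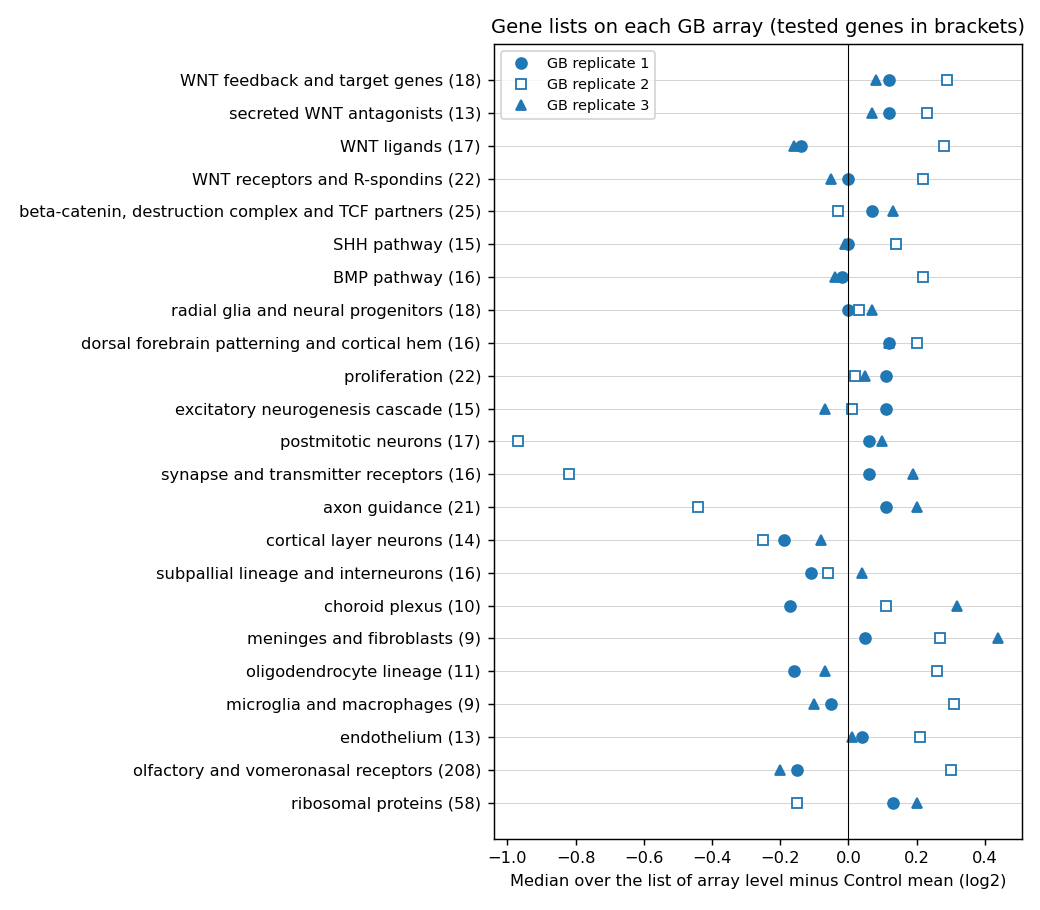
Median over each gene list of the level on a GB array minus the Control mean (horizontal axis, log2), with 1 symbol for each GB array and the number of tested genes in brackets. GB replicate 2 (open squares) stands at -0.97 for postmitotic neuron genes and 0.30 for olfactory and vomeronasal receptors, where GB replicates 1 and 3 stand at 0.06 and 0.10, and at -0.15 and -0.20.

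No gene that was lower in GB passed in either fit. With all GB arrays, the genes with the lowest p among those lower in GB were Pantr1, Nwd2, Hs6st2, Abhd13 and Tiam2 (limma, adjusted p = 1.0 for each). Without GB replicate 2 they were Trib3, Arfgef2, Mecr, Aqp1 and Slc22a7 (limma, adjusted p = 0.711 for each). Aqp1, a water channel of the choroid plexus, lay at 7.0, 6.95 and 6.96 on the Control arrays and at 6.61, 7.04 and 6.67 on the GB arrays, below Control only on replicates 1 and 3. Differences of 2-fold or more were found without GB replicate 2 for 27 genes higher in GB and for 1 lower, the Y-linked Eif2s3y. The largest of the 27 was that of Xist, also a sex gene, at 2.76 on the log2 scale, with levels of 4.89 and 10.53 on GB replicates 1 and 3. With all GB arrays there were 13 and 6.

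GB replicate 2 went along with few of the differences seen on the other GB arrays. Of the 448 genes higher at an unadjusted p under 0.05 without it, 124 (27.7%) lay above the Control mean on GB replicate 2, where 62.7% of all genes tested did. Of the 343 lower genes, 46 (13.4%) lay below the Control mean on this array, against 37.3% of all genes. The 7 genes that passed without GB replicate 2 lay above the highest Control array on it, and so did Lef1, Wif1, Nkd1, Apcdd1 and Emx2. The latter were picked from the genes named above. The share of all genes tested above the highest Control array on GB replicate 2 was not computed, while 62.7% lay above the Control mean on it. The position of these genes on this array is therefore given as a description only.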

How the data were processed

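RNA of postnatal day 0 mouse forebrain was extracted with Trizol, biotin-labelled and hybridised to Affymetrix arrays, per the labels' protocols. The deposited values are on a log2 scale; RMA and Affymetrix Expression Console are named in the submitters' processing notes, which give no versions. RMA subtracts background, equalises probe distributions and summarises probes; the SD over genes of the deposited values still differed between arrays, from 0.661 on GB replicate 2 to 0.98 on GBS replicate 2. No scanner files were used here and no depth applies; the number of arrays limits the precision.

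Of 35556 probe sets, 21789 had a single gene symbol in the platform annotation, 1621 several and 12146 none listed; 21698 matched RefSeq (GRCm38.p6). Each gene was read from its probe set of highest mean level on the 12 arrays. Genes above the 40th percentile of their array on at least 3 of 12 arrays were tested. limma 3.58.1 (R 4.3.3) fitted 4 group means over 12 arrays, or 11 without GB replicate 2, with eBayes and Benjamini-Hochberg adjustment over 14195 genes, and a gene was called at an adjusted p under 0.05. A standard error is the moderated one, and intervals are 95% limits from the same fit. The code was tested on simulated data.

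The gene lists, the members named whatever their values (Ctnnb1, Smo, WNT and SHH targets, Mki67, Lin28a, Pax6, Eomes, Emx2), and the choice to leave out GB replicate 2 were made with earlier results of these data known. Named besides were called genes, the 5 genes of lowest p in a direction with fewer than 5 calls, and up to 4 genes of lowest p in each list; clone names, predicted genes, receptors of smell, small RNAs and sex genes were left out of these. Other genes (Dcx, Neurod6, Ttr, Emx1, En1, Xist, Eif2s3y, Col1a1, Prm1) were chosen after their values were seen. Replicates are biological per the labels, which do not say whether mice shared a litter. The p-values rest on the spread between arrays within the 4 groups of the fit, so a shared litter could not be allowed for.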

Additional observations from a re-analysis of the deposited data

How the results depend on the processing

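Alternatives were tried 1 at a time: normalisation, filter, probe set choice, threshold, array weights, covariates, the arrays in the fit and each array left out. With all GB arrays the count of genes higher in GB, 0, became 1 after quantile normalisation, 67 with array weights, 25 without GB replicate 2, GS replicate 3 and Control replicate 3, and 0 to 7 when single arrays were left out; the count of lower genes, 0, became 1 with array weights and 1 without those 3 arrays. Without GB replicate 2 the count of higher genes, 7, became 20 after quantile normalisation, 159 with array weights, 43 with only GB and Control arrays in the fit, 4 with sex as a covariate, 12 with the receptor-gene median as a covariate, 25 also without GS replicate 3 and Control replicate 3, 4 at an adjusted p under 0.01, and 2 to 32 when single arrays were left out; that of lower genes, 0, became 21 with array weights and 1 also without GS replicate 3 and Control replicate 3. The cause of these shifts was not tested. The fit of array weights did not reach its convergence tolerance. Of the 7 genes, Mybpc1 and Chd7 passed under all 23 alternatives, Cyp1b1 under 22, Adamts19 under 21, Pcgf5 under 17, Nhlh1 under 14 and Axin2 under 12; Axin2, Nhlh1 and Pcgf5 did not pass with sex as a covariate (limma, adjusted p = 0.19, 0.19 and 0.147), and Axin2 and Nhlh1 did not after array medians were centred (adjusted p = 0.0765 and 0.059). No direction reversed for a called value.

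The labels do not say whether replicate numbers pair the samples. Deviations of same-numbered GB and Control arrays from their group means correlated at 0.395, -0.66 and -0.766. Those of GB replicate 2 and Control replicate 3 correlated at 0.801. With 3 arrays a group, these values do not settle whether the numbers mark pairs. With the replicate number as a block, 0 genes were higher with all GB arrays and 6 without GB replicate 2, where Axin2 had an adjusted p of 0.0626 in limma.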

Other observations

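Prm1, a sperm protamine with no known role in forebrain, had levels of 7.37, 7.18 and 7.38 on the Control arrays, 8.62, 8.66 and 8.43 on the GB arrays, 9.66, 9.13 and 9.40 on the GS arrays and 8.60, 7.99 and 8.87 on the GBS arrays. All 9 arrays of genotypes with Cre lay above the 3 arrays without it. The difference between GB and Control was 1.26 on the log2 scale with all GB arrays (limma, adjusted p = 0.492) and 1.22 without GB replicate 2 (adjusted p = 0.145).

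Bmp2, a secreted BMP ligand, lay at 5.88, 5.52 and 5.75 on the Control arrays and at 7.19, 5.95 and 6.70 on the GB arrays, without overlap. The difference was 0.90 with all GB arrays and 1.23 without GB replicate 2 (limma, adjusted p = 1.0 and 0.145). Of 16 tested BMP pathway genes it alone had an unadjusted p under 0.05 in limma without GB replicate 2. Its Control levels, and its GS levels of 5.51 to 5.85, lay below the array medians of 6.52 to 6.69. The higher levels that let Bmp2 pass the low-value filter were on GB and GBS arrays, so its place among the tested genes depended on them. Bmp5, left out by the filter, lay at 5.92 to 6.05 on the Control arrays and 6.23 to 6.52 on the GB arrays. Gadd45a, a stress-response gene and p53 target, lay between 7.31 and 7.41 on the Control arrays and between 7.50 and 8.20 on the GB arrays (difference 0.51 with all GB arrays and 0.70 without GB replicate 2, limma, adjusted p = 1.0 and 0.145), and 0 of 7 tested p53 targets and apoptosis genes passed, while limma gave an unadjusted p under 0.05 for 2 that were higher and for 1 that was lower. Egr1, an immediate early gene, lay between 6.45 and 6.53 on the Control arrays and between 6.67 and 6.98 on the GB arrays (difference 0.38 with all GB arrays and 0.35 without GB replicate 2, limma, adjusted p = 1.0 and 0.711). Of 12 tested immediate early and heat shock genes, 8 lay above Control and 4 below with all GB arrays, with a median of 0.03. Without GB replicate 2, 5 lay above and 7 below, with a median of -0.04, and 0 passed. Of 14 Notch pathway genes tested without that array, 13 lay below Control and 1 above, where 55.1% of all genes lay below and 200 of 208 olfactory and vomeronasal receptor genes did, with a median of -0.06 and 0 at an unadjusted p under 0.05 in limma; on GB replicate 2 the Notch list had a median of 0.21 and the receptor genes one of 0.30.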
